A study of Mus musculus with 29 samples.

Results

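Axon guidance ligands and receptors are the 72 genes of the deposited count tables whose symbols name semaphorins of classes 3 to 7, plexins, neuropilins, Eph receptors, ephrins, Slits, Robos, netrins, netrin-Gs, Unc5 receptors, Dcc or Neo1, out of 24499 gene symbols counted. They were chosen by name alone, with no measured value in the rule. They comprise 20 semaphorins, 11 plexins and neuropilins, 8 ephrins, 14 Eph receptors, 7 Slit and Robo genes and 12 netrins, netrin-Gs and netrin receptors, which makes 37 ligands and 35 receptors. The study followed the hypothalamus of C57BL/6 wild-type mice over 9 ages, by RNA sequencing of whole dissected tissue, and it asked how expression changes between the neonate, puberty, adulthood and old age. Used here were 4 libraries of each of the ages 4 weeks and 5 weeks, 2 of the age 24 months, and 3 of each remaining age, namely postnatal day 5 (P5), 3 weeks and 2, 6, 12 and 18 months. The labels name no treatment. Per the labels every mouse was male, housed alone under alternating light and dark, and killed in the middle of the light phase. The counts of P5 replicates 1 and 2, given below, go against the male label. Replicates are separate samples of an age by their labels, so a p-value measures the spread between these samples. Another 24-month library, which holds counts for 1385 genes only, was left out.

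These families steer growing axons. Secreted and membrane-bound semaphorins bind plexins, often with neuropilins as co-receptors, and mostly repel growth cones. Ephrins and Eph receptors sit on apposed cells and signal in both directions, Slits repel axons that carry Robos, and netrins attract through Dcc and Neo1 or repel through Unc5 receptors. In the mature brain many of these genes continue to be expressed in neurons, glia and vessels, where they act on synapses, myelin and blood vessels.

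Each used library held 24661631 to 39783779 counts assigned to genes, of which the guidance genes took 0.31 to 0.59%. Levels are counts per 1000000 counts (CPM) after scaling for library composition, and every fold change is the older age over the younger. A change was called at a Benjamini-Hochberg adjusted p below 0.05 in edgeR's quasi-likelihood test, adjusted over all 16916 genes tested. Of the 72 guidance genes, 71 had enough counts to be tested. The exception, Ntn5, lay between 0 and 0.858 CPM in the 28 libraries. Some libraries stood apart in 3 ways. P5 replicates 1 and 2 held 746 and 791 CPM of Xist and no counts of the Y-linked genes Ddx3y, Eif2s3y and Uty, against 0.223 CPM of Xist in P5 replicate 3. By these genes P5 replicates 1 and 2 came from females, against their male label. The 2-month libraries held 53.7 to 62.7 CPM of 10 hypothalamic transcription factors in sum, against 120 to 172 CPM at 5 weeks, and 143 to 207 CPM of 10 midbrain and hindbrain markers, against 42.9 to 101 CPM at 5 weeks. All 3-week libraries and replicates 1 and 2 at 4 weeks held 1.44 to 2.11 CPM of the 7S RNA gene Rn7s2, against 21.7 to 29.6 CPM in replicates 3 and 4 at 4 weeks and in all 5-week libraries. Those 3-week and 4-week libraries low in Rn7s2 held 34 to 47 CPM of Bpifa2, against 0 to 0.0587 CPM in all other libraries.

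The upstream sequences of 4 members are shown as examples of members that changed by at least 2-fold between P5 and 3 weeks and have a single window in the table. Plxnb3 and Unc5b rose, Ephb2 and Neo1 fell, and the 4 were chosen after their values were seen. Each runs 5′ to 3′ over the 250 bases before the RefSeq gene start (GRCm38.p6), on the gene's strand, with CpG dinucleotides in capitals. The window of Plxnb3 lies at chrX:73756853-73757102 on the plus strand, that of Unc5b at chr10:60831582-60831831, that of Ephb2 at chr4:136836013-136836262 and that of Neo1 at chr9:59036442-59036691, the last 3 on the minus strand.
Plxnb3: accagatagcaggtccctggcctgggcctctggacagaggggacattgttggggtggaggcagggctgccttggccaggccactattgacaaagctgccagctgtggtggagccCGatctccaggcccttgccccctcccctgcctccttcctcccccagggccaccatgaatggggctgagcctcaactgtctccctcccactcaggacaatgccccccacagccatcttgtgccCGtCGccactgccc
Unc5b: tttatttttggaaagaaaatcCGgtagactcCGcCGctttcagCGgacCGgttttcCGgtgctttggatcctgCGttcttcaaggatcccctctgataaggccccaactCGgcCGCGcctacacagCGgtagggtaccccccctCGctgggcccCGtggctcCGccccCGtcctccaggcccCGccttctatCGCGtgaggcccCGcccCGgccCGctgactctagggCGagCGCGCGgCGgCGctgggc
Ephb2: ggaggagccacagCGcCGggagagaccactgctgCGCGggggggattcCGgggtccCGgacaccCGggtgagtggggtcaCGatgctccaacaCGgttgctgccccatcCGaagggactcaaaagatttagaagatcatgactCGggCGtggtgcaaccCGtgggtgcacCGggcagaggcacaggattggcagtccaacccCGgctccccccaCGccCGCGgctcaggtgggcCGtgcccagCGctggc
Neo1: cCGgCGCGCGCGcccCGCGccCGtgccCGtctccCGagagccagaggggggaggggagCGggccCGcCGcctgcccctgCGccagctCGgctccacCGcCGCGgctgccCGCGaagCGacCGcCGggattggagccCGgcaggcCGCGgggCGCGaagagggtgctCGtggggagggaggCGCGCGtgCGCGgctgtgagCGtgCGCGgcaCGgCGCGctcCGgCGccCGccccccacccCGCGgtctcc
The Plxnb3 window holds 3 CpGs, the Unc5b window 27, the Ephb2 window 20 and the Neo1 window 45. Over the 78 windows of the 62 members in the table, the median was 15.5 CpGs, against 6 over all 32851 windows. The latter include windows of genes not tested here. Several genes have more than 1 window, and with 1 median per gene the members had 16.25 and all genes 6. Motifs were searched on both strands. The GC box GGGCGG was present in 70.5% of the members' windows and 32.7% of all windows. The TATA motif TATAAA was present in 2.56% and 12.4%, and the SOX motif ACAAAG in 8.97% and 16.5%. By gene, the median was 8 CpGs over the 9 members that were higher at 3 weeks than at P5, and 17.25 over the 32 with a window that were lower. Over the 21 with a window that were not called it was 17. Unc5b, with 27, rose, so the CpG count does not separate the directions gene by gene. Members were also long genes: their median span was 57.6 kb, from 4.6 kb for Efna4 to 1097.4 kb for Dcc, against 18.3 kb over protein-coding symbols of the files.

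Between P5 and 3 weeks, from the first postnatal week to weaning, guidance genes mostly fell. At 3 weeks 38 were lower than at P5, 9 were higher and 24 were not called, so 66.2% were called, against 59.0% of all genes tested. The share called is close to that background, but the directions were unequal, since 29.3% of all genes were called lower and 29.8% higher. The median log2 fold change was -0.40 over the guidance genes and -0.01 over all genes. The libraries of the 2 ages did not overlap for 46 of the 71 members, against 67.0% of all genes. At least 2-fold changes were seen in 14 members that fell (19.7%, against 9.07% of all genes) and 4 that rose (5.63%, against 9.74%). Of 35 receptors 22 fell and 2 rose, and of 36 tested ligands 16 fell and 7 rose. In whole tissue, fewer cells of a type and less RNA per cell cannot be told apart. Rn7s2 (1.44 to 2.11 CPM at 3 weeks, 0.0863 to 0.201 CPM at P5) and Bpifa2 (34 to 47 CPM, 0 to 0.0279 CPM) also separated these ages. Library set and age therefore cannot be told apart here. Y-linked counts were absent from P5 replicates 1 and 2 but present in all 3-week libraries, so sex was not balanced between the ages. P5 replicates 1 and 2 also differed from P5 replicate 3 in midbrain and hindbrain markers (22.1 and 19 against 134 CPM in sum). With P5 replicate 3 as the lone P5 library, assumed to vary like the libraries of the other ages, 41 of 72 tested members were called, against 45% of all genes in that fit, and 39 of them were among the 47. The 8 calls lost were those of Sema3a (-0.70, edgeR adjusted p = 0.0834), Sema3e, Sema3g, Sema6c, Plxnd1, Efnb2, Ephb1 (-0.22, 0.136) and Unc5d, where adjusted p ran up to 0.544.

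**Figure D1:**
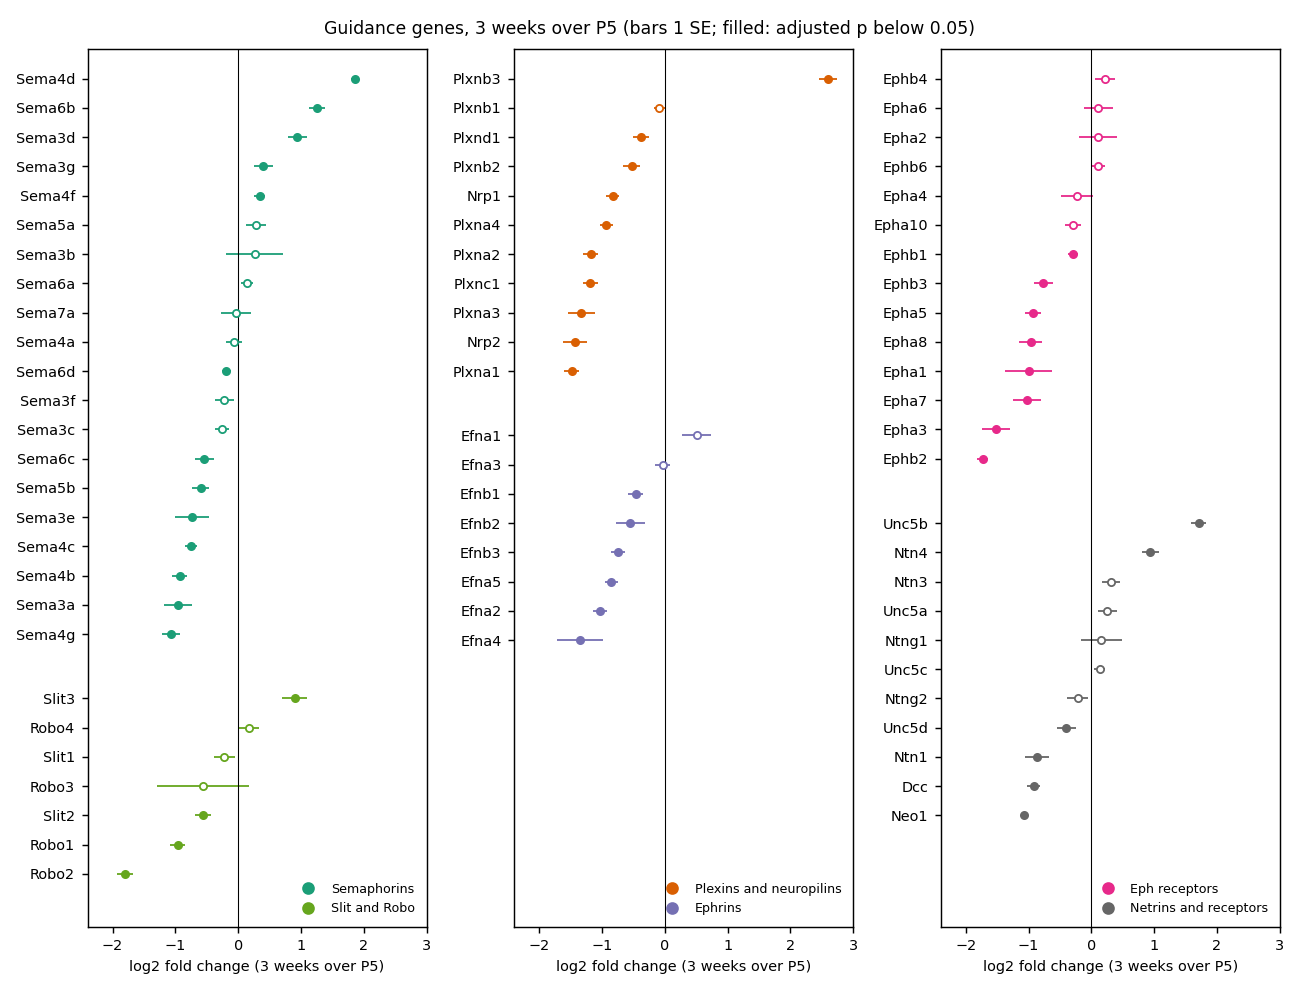
Log2 fold change of each tested guidance gene at 3 weeks over P5 (x axis), grouped by family, from 3 libraries an age. Points are edgeR estimates, bars are 1 standard error, and filled points passed the adjusted p threshold; 38 filled points lie left of 0 and 9 right of it.

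The semaphorins divided. Of 20, 5 rose and 8 fell. Sema4d, a membrane-bound ligand of Plxnb1 made by oligodendrocytes among other cells, had 186, 197 and 193 CPM at 3 weeks, against 51.5, 54.5 and 53.2 CPM at P5. All 3 libraries at 3 weeks lay above all P5 libraries, a log2 fold change of 1.86 ± 0.07 (SE; edgeR adjusted p = 1.37e-16). Sema6b, a transmembrane ligand of A-type plexins, had 314, 441 and 377 CPM at 3 weeks, against 162, 158 and 157 CPM at P5, which is a log2 fold change of 1.25 ± 0.13. The 3-week libraries were again all higher, although they spread more widely than the P5 libraries. The secreted Sema3d averaged 17.4 ± 1.33 CPM at 3 weeks and 9.08 ± 0.437 CPM at P5 (SD, n = 3 each), and Sema3g (log2 fold change 0.40) and Sema4f (0.34) rose less. The largest falls were in Sema4g (-1.07 ± 0.15), Sema3a (-0.96 ± 0.23) and Sema4b (-0.93 ± 0.12), followed by Sema4c, Sema3e, Sema5b, Sema6c and Sema6d, the last of which overlaps annotated genes on the opposite strand. Sema3a is the classic secreted repellent that acts through Nrp1 and A-type plexins. Sema3e, which binds Plxnd1 without a neuropilin, had 21.2, 11.1 and 16.5 CPM at 3 weeks, against 34.4, 19.0 and 27.8 CPM at P5. These ranges overlapped, and its call was lost without P5 replicate 1 or 3 or 3-week replicate 2 or 3 (edgeR adjusted p 0.055 to 0.139). Sema6a (0.14 ± 0.09) and the lipid-anchored Sema7a (-0.04 ± 0.24) were not called, nor were Sema3b, Sema3c, Sema3f, Sema4a and Sema5a (-0.26 to 0.29).

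Plexins and neuropilins fell almost as a block, with the exception of Plxnb3. Of 11 genes, 9 fell, 1 rose and 1, Plxnb1, was not called (95% interval of the log2 fold change -0.27 to 0.09). Plxna1, a signalling receptor for semaphorins, had 159, 191 and 168 CPM at 3 weeks, against 485, 469 and 488 CPM at P5. Its libraries at 3 weeks were all below the lowest at P5, and the log2 fold change was -1.48 ± 0.12. Nrp2, a co-receptor for secreted semaphorins, had 76.6, 75.8 and 59.9 CPM at 3 weeks, against 151, 257 and 164 CPM at P5 (log2 fold change -1.43 ± 0.19). Here P5 replicate 2 stood well above the other P5 libraries, yet all 3 exceeded the 3-week libraries. Plxna3 (-1.33 ± 0.21), Plxnc1 (-1.19 ± 0.12), Plxna2 (-1.18 ± 0.12), Plxna4 (-0.93 ± 0.10), Nrp1 (-0.83 ± 0.10), Plxnb2 (-0.53 ± 0.13) and Plxnd1 (-0.38 ± 0.13) also fell. The call of Plxnd1 was lost without P5 replicate 1 (edgeR adjusted p = 0.114) or 3-week replicate 2 (0.0636). Counts of Plxna4 are uncertain because the annotation holds an antisense gene, Plxna4os1, and the strand setting of the counting is not given in the sources used here.

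Plxnb3, a receptor of Sema5a, moved the other way and further than any other member. It had 47.9, 46.9 and 51.7 CPM at 3 weeks, against 9.06, 6.30 and 8.88 CPM at P5. The groups were far apart, with a log2 fold change of 2.60 ± 0.15 (edgeR adjusted p = 3.23e-13). Plxnb3 is on the X chromosome, as are Plxna3 and Efnb1, and against P5 replicate 3 alone it was 2.45 on the log2 scale.

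Among ephrins none rose and 6 of 8 fell. The lipid-anchored Efna2 had 14.7, 16 and 15.7 CPM at 3 weeks, against 30.0, 35.3 and 29.5 CPM at P5, and Efna5, which patterns topographic maps, had 24.1, 26.5 and 23.4 CPM at 3 weeks, against 46.9, 42.9 and 44.0 CPM at P5. Both pairs of groups were separate, with log2 fold changes of -1.03 ± 0.11 and -0.85 ± 0.11. Efnb3, a membrane-spanning ephrin that forms a midline barrier in the spinal cord, averaged 276 ± 30.0 CPM at 3 weeks and 464 ± 90.7 CPM at P5 (SD, n = 3 each). Efnb1 (-0.46), Efnb2 (-0.55) and the scarce Efna4 (-1.35 ± 0.36) fell as well. Efna1 (0.51 ± 0.23, edgeR adjusted p = 0.0548) and Efna3 (-0.03 ± 0.12) were not called.

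Of 14 Eph receptors none rose and 8 fell. Ephb2, which acts in axon guidance and at excitatory synapses, had 30.3, 37.7 and 35.8 CPM at 3 weeks, against 113, 123 and 108 CPM at P5. The 3-week values were about 0.302 times those at P5 and did not overlap them (log2 fold change -1.73 ± 0.09). Epha3 averaged 4.17 ± 0.554 CPM at 3 weeks and 11.9 ± 1.07 CPM at P5, and Epha7 averaged 39.1 ± 5.31 CPM at 3 weeks and 79.8 ± 10.1 CPM at P5 (SD, n = 3 each). Epha1, Epha5, Epha8, Ephb1 and Ephb3 were the other members that fell, with log2 fold changes of -0.30 (Ephb1) to -1 (Epha1). The libraries of Epha1 overlapped between the ages, as did those of Efnb2. Epha4, which binds ephrins of both classes, had 103, 72.6 and 103 CPM at 3 weeks, against 127, 73.9 and 125 CPM at P5. At both ages replicate 2 was the lowest, the groups overlapped and no difference was called (-0.23 ± 0.25). Epha2, Epha6, Epha10, Ephb4 and Ephb6 were not called either (-0.29 to 0.21).

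Robo2, a Slit receptor, fell furthest of all members: it had 49.3, 36.8 and 40.9 CPM at 3 weeks, against 172, 114 and 158 CPM at P5. Every 3-week library was below every P5 library, and the log2 fold change was -1.80 ± 0.13 (edgeR adjusted p = 9.02e-12). Robo1 averaged 80.9 ± 11.3 CPM at 3 weeks and 157 ± 8.80 CPM at P5 (SD, n = 3 each), and Slit2 fell less, with a log2 fold change of -0.56 ± 0.13. Slit3 rose: it averaged 19.3 ± 1.84 CPM at 3 weeks and 10.3 ± 2.15 CPM at P5 (SD, n = 3 each; log2 fold change 0.90 ± 0.20). Slit1 (-0.22 ± 0.17), Robo3 (-0.56 ± 0.73) and the endothelial Robo4 (0.17 ± 0.16) were not called.

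In the netrin group 2 of 11 tested genes rose and 4 fell. Unc5b, a netrin receptor of neurons and vessels, had 78.5, 84.9 and 102 CPM at 3 weeks, against 28.2, 28.4 and 24.4 CPM at P5. The groups were well separated, with a log2 fold change of 1.71 ± 0.12. Ntn4, a netrin of basement membranes whose locus overlaps annotated genes on the opposite strand, averaged 17.4 ± 1.76 CPM at 3 weeks and 9.11 ± 0.307 CPM at P5 (SD, n = 3 each). Neo1, a receptor for netrins and repulsive guidance molecules, had 132, 132 and 130 CPM at 3 weeks, against 266, 297 and 271 CPM at P5. Its spread within ages was small beside the difference, a log2 fold change of -1.08 ± 0.05. Dcc (-0.92 ± 0.10), Ntn1 (-0.87 ± 0.19) and Unc5d (-0.40 ± 0.15) also fell. Ntn3, Ntng1, Ntng2, Unc5a and Unc5c were not called, with log2 fold changes between -0.22 and 0.31.

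Effectors of these receptors, ligands of Neo1 and genes of other guidance pathways were counted in 5 lists. The lists share Dpysl3 and Gap43 with the immature neuron markers used below. Of all genes tested, 29.3% were called lower at 3 weeks than at P5 and 29.8% higher. Of 20 effectors of semaphorins and plexins, 9 fell and 4 rose, and Dpysl3, a growth cone phosphoprotein, averaged 123 CPM at 3 weeks and 2110 CPM at P5. Crmp1 (-2.51 ± 0.09) and Dpysl5 (-3.02 ± 0.12), of the same protein family, fell too. Of 11 Slit and Robo effectors 6 fell and 1 rose. Srgap1, Srgap2 and Srgap3, which bind the tail of Robo, fell (log2 fold changes of -1.58, -1.43 and -1.17), and the kinase Pak1 rose (0.81 ± 0.09). Of 14 netrin effectors and Neo1 ligands 9 fell and 3 rose, among them Draxin, a Dcc antagonist, with 0.422 CPM at 3 weeks and 21.5 CPM at P5. Of 15 Eph and ephrin effectors 6 rose and 4 fell, among them Sdcbp, an adaptor of B ephrins (1.27 ± 0.08), and Grip1, another adaptor of them (-1.41 ± 0.10). Of 10 genes of Wnt, Sonic hedgehog and planar polarity guidance, 5 fell and 2 rose.

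Cell type markers moved over the same interval. All 10 markers of immature neurons fell, with a summed level of 2990 to 3540 CPM at 3 weeks and 11000 to 11300 CPM at P5. All 10 markers of mature oligodendrocytes rose, to 19300 to 24200 CPM in sum at 3 weeks, against 211 to 318 CPM at P5. Astrocyte markers rose in 7 of 8 cases (3800 to 4000 CPM at 3 weeks, 1540 to 1600 CPM at P5), microglial markers in 7 of 7 and endothelial markers in 6 of 8. Of 8 oligodendrocyte precursor markers 5 rose and 3 fell. Among regional markers, 5 of 8 thalamic markers rose, with 720 to 1260 CPM in sum at 3 weeks and 476 to 737 CPM at P5, and the 2 ranges overlapped. Of 7 cortical markers 1 rose and 2 fell, of 8 striatal markers 2 rose and 1 fell, and of the 10 hypothalamic transcription factors 1 fell. None of these lists had a marker at 0 in every library of an age. Their part in the changes of guidance genes was not tested.

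The P5 mean was above the mean of every later age for 43 of the 71 tested members (60.6%, against 34% of all genes) and below it for 11 (15.5%, against 35.1%). From 3 weeks on, the median ratio of the highest to the lowest age mean was 1.47, and 10 members exceeded 2-fold. A test of equal means over the 8 ages from 3 weeks to 24 months called 34 members (47.9%, against 44.9% of all genes), near the background. Of these 34, 20 were highest at 3 weeks, 14 lowest at 2 months and 11 lowest at 24 months. The matching values over all genes were not computed for these counts, for the median ratio or for the 2-fold count. These values are therefore not read as particular to guidance genes. Without the 2-month libraries 25 members were called, against 41.8% of all genes in that fit. The 8 members of smallest p were Sema4d, Sema6a, Sema6b, Efna2, Ntn3, Efna3, Plxnc1 and Sema3d.

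**Figure D2:**
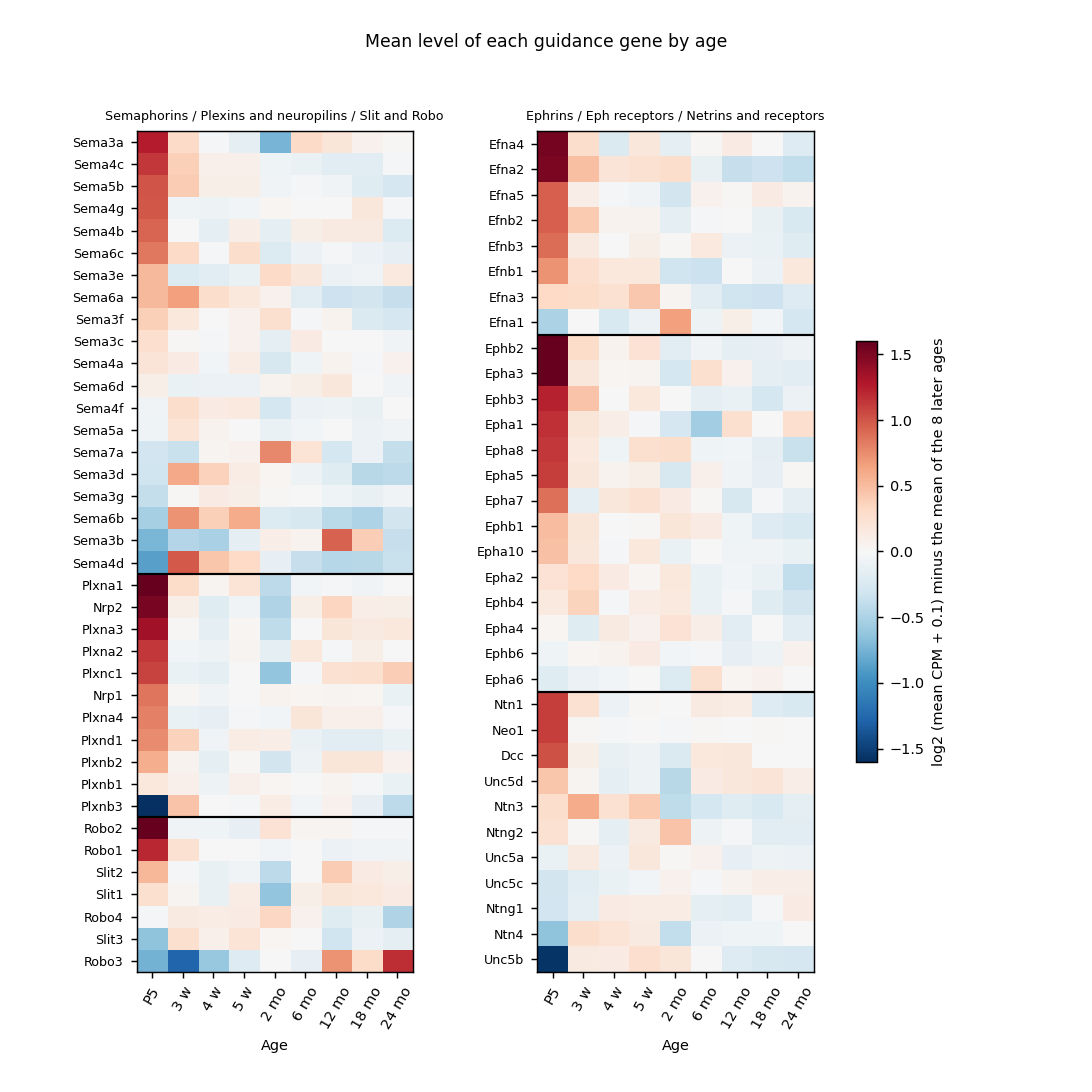
Mean level of each tested guidance gene (rows, by family) at each age (columns, P5 to 24 months), as the log2 of the mean CPM plus 0.1 minus the gene's mean over the 8 ages after P5. Most rows are darkest red at P5, where 43 members had their highest mean; Plxnb3, Unc5b and Sema4d are blue there.

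Between 3 and 5 weeks, the interval around puberty, 3 members fell and none rose, which is 4.23% of the members, against 2.15% of all genes called and 1.45% called lower. Sema4d had 116, 121, 126 and 123 CPM at 5 weeks, against 186, 197 and 193 CPM at 3 weeks (log2 fold change -0.66 ± 0.06). Its 4-week libraries, at 124, 148, 134 and 122 CPM, lay below the 3-week libraries. Sema6a fell by 0.48 on the log2 scale, with 61 to 70.3 CPM at 5 weeks and 87.4 to 98.0 CPM at 3 weeks. Plxnb3 fell by 0.49, with 32.5 to 36.2 CPM at 5 weeks and 46.9 to 51.7 CPM at 3 weeks, and its call was lost when any library of either age was left out (edgeR adjusted p 0.0815 to 0.177). At unadjusted p below 0.05 there were 9 members (12.7%, against 11.7% of all genes), near the background. The Rn7s2 split runs along this comparison, since every 3-week library is low and every 5-week library is high. With the split as a term, estimated within the 4-week libraries, none of the 71 members was called by edgeR: Sema4d was -0.57 (adjusted p = 0.054), Plxnb3 -0.30 (0.395) and Sema6a -0.27 (0.344). DESeq2, without that term, called 4. Of 8 markers of oligodendrocyte precursors 5 fell over the same weeks. Their sum was 614 to 723 CPM at 5 weeks and 1010 to 1030 CPM at 3 weeks. Mature oligodendrocyte markers summed to 13700 to 18300 CPM at 5 weeks and 19300 to 24200 CPM at 3 weeks. Of these 10 markers 1 was called higher and none lower. Of 10 immature neuron markers 2 fell. The part of these cell types was not tested.

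**Figure D3:**
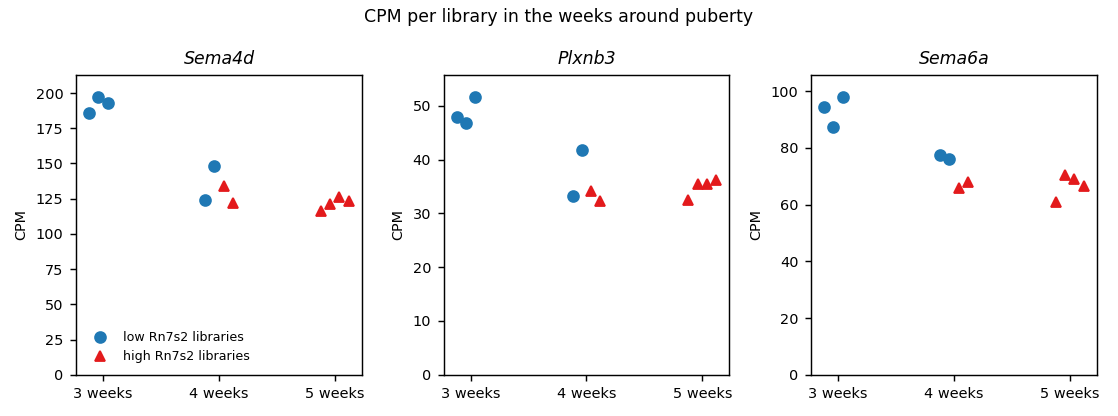
CPM of Sema4d, Plxnb3 and Sema6a in each library at 3, 4 and 5 weeks, with circles for libraries low in Rn7s2 and triangles for libraries high in it. At 4 weeks, where both kinds occur, Sema4d lay at 124 and 148 CPM in the low libraries and at 134 and 122 CPM in the high ones.

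**Figure D4:**
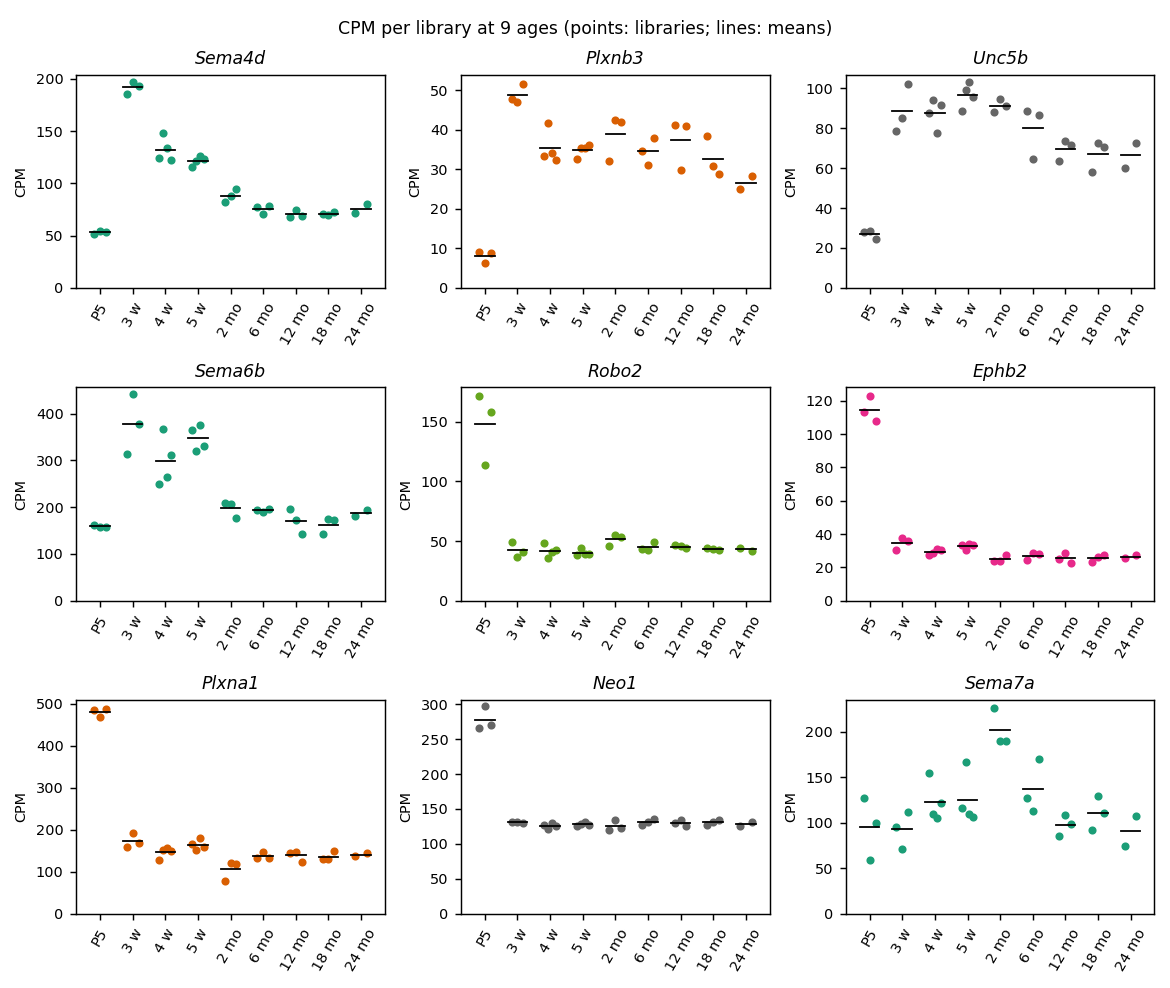
CPM per library (points) and mean per age (lines) of 9 guidance genes from P5 to 24 months, each on its own axis from 0. Robo2, Ephb2, Plxna1 and Neo1 are highest at P5, Sema4d, Plxnb3 and Sema6b peak at 3 weeks, and Sema7a is highest at 2 months.

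Between 5 weeks and 2 months 13 members fell and 3 rose, which is 22.5% of the members, against 16.6% of all genes called, 9.43% lower and 7.13% higher. Ligands made up 12 of the 16, of 36 tested, and receptors 4 of 35. Sema6b had 209, 207 and 177 CPM at 2 months, against 364, 320, 376 and 331 CPM at 5 weeks. No 2-month library reached the lowest 5-week library, and the log2 fold change was -0.82 ± 0.12. Ntn3, a netrin whose counts may include reads of the overlapping Tbc1d24, had 16.6, 17.2 and 15.6 CPM at 2 months and 24.6 to 33.2 CPM at 5 weeks (-0.84 ± 0.13). Sema4d (-0.46 ± 0.06), Plxnc1 (-0.65 ± 0.12), Plxna1 (-0.63 ± 0.11) and Sema4f (-0.45 ± 0.08) fell with small p-values. The Slit ligand Slit1 had 36.8, 68.3 and 57.2 CPM at 2 months, against 89.7, 82.7, 99.7 and 90.6 CPM at 5 weeks. Replicate 11 was the lowest of the 2-month libraries, and the log2 fold change was -0.74 ± 0.17. Ntn4, Sema6c, Efnb1, Efna3, Ephb2 and Sema4a fell by 0.54 to 0.38 on the log2 scale. The call of Efna3 was lost without 2-month replicate 13 (edgeR adjusted p = 0.0932), and those of Efnb1 (0.0546) and Ntn4 (0.0502) with the compared ages alone in the fit. The libraries of Sema4a overlapped between the ages.

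The 3 members that rose to 2 months were Efna1, Sema7a and Robo2. Efna1, a ligand of A-type Eph receptors, had 6.82, 5.86 and 5.34 CPM at 2 months, against 2.69, 3.77, 4.34 and 3.26 CPM at 5 weeks (log2 fold change 0.77 ± 0.21). The groups were separate, and the call was lost without 2-month replicate 11 (edgeR adjusted p = 0.0531). Sema7a, which binds Plxnc1 and integrins, had 226, 190 and 190 CPM at 2 months, against 116, 166, 109 and 106 CPM at 5 weeks (0.70 ± 0.22). Its call was lost when any library other than 5-week replicate 2 was left out (edgeR adjusted p 0.0562 to 0.123). Robo2 rose by less (0.36 ± 0.12), and its call was lost without any of 5 of the 7 libraries (edgeR adjusted p 0.0785 to 0.125). Of the 10 hypothalamic transcription factors 9 fell over this interval and 4 of 9 tested midbrain and hindbrain markers rose. Immature neuron markers fell in 6 of 10 cases, with 2010 to 2500 CPM in sum at 2 months and 2550 to 3030 CPM at 5 weeks. Precursor markers fell in 2 of 8 cases, mature oligodendrocyte markers rose in 2 of 10, and of 8 astrocyte markers 3 rose and 1 fell. Rn7s2 stood at 0.177 to 0.435 CPM at 2 months and 24.2 to 29.6 CPM at 5 weeks, so the library split runs along this comparison too. Tissue region, library set and age cannot be told apart at 2 months.

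Between 5 weeks and 6 months 9 members fell and none rose, which is 12.7% of the members, against 13% of all genes (8.39% called lower), so the share is close to the background. The 5-week libraries are also the base of the previous comparison. Sema4d had 77.4, 70.7 and 77.9 CPM at 6 months, below each 5-week library given above (log2 fold change -0.69 ± 0.07, edgeR adjusted p = 6.74e-07). Sema6b had 193, 190 and 197 CPM at 6 months, again below the 5-week libraries (-0.85 ± 0.12). Ntn3 (-0.71 ± 0.13), Efna3 (-0.60 ± 0.11), Efnb1 (-0.51 ± 0.11) and Sema6a (-0.36 ± 0.09) fell, as did Efna2, Ephb2 and Sema4f. Efna1 (0.01), Sema7a (0.14) and Robo2 (0.17), which had risen to 2 months, were not called. Nor were Plxnc1, Plxna1, Slit1, Ntn4, Sema6c and Sema4a, which had fallen to 2 months. Without 6-month replicate 32 only 5 members were called, and Sema6a was among those lost (edgeR adjusted p = 0.0568). The calls of Efna2, Ephb2 and Sema4f were each lost without any of several single libraries of either age. Markers of mature oligodendrocytes fell in 6 of 10 cases, with 8500 to 12300 CPM in sum at 6 months and 13700 to 18300 CPM at 5 weeks, and 4 of 9 midbrain and hindbrain markers rose. Precursor markers fell in 4 of 8 cases (438 to 493 CPM in sum at 6 months, 614 to 723 CPM at 5 weeks) and immature neuron markers in 3 of 10. Midbrain and hindbrain markers summed to 53.3 to 202 CPM at 6 months and 42.9 to 101 CPM at 5 weeks. Of the 10 hypothalamic transcription factors 1 fell, with sums of 89.3 to 124 CPM at 6 months and 120 to 172 CPM at 5 weeks. The part of these lists was not tested. Rn7s2 stood at 0.175 to 1.78 CPM at 6 months and 24.2 to 29.6 CPM at 5 weeks. Tissue region, library set and age therefore cannot be told apart here either.

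**Figure D5:**
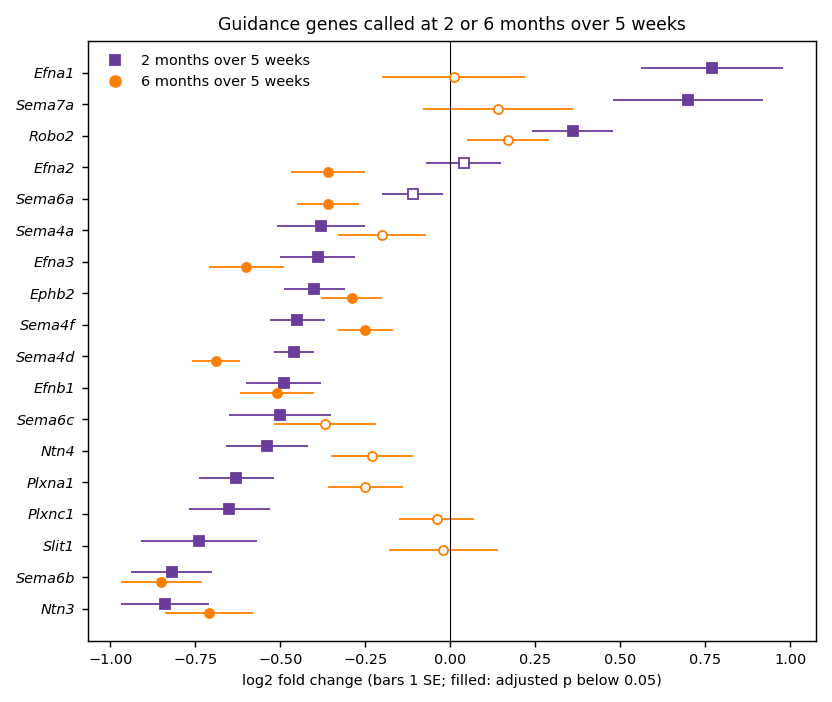
Log2 fold changes of the 18 guidance genes called at 2 months or 6 months over 5 weeks, with squares for 2 months and circles for 6 months, bars of 1 standard error and filled points past the adjusted p threshold. Sema6b, Ntn3, Sema4d, Efnb1, Sema4f, Ephb2 and Efna3 are filled at both ages; both comparisons use the same 5-week libraries.

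In old age no guidance gene passed the threshold in edgeR's test. At 18 and 24 months against 6 and 12 months edgeR called none of the 71 members, and 5 of all genes tested (0.0296%). At unadjusted p below 0.05 there were 10 members (14.1%, against 6.54% of all genes), and DESeq2 called 1, Ephb1. Ephb1 had 46.8, 46.7 and 47.9 CPM at 18 months and 43.8 and 48.3 CPM at 24 months, against 61.7, 53.2 and 63.5 CPM at 6 months and 46.5, 51.2 and 58.3 CPM at 12 months. The old libraries were at the low end, overlapping the middle-aged ones at 12 months, and the log2 fold change was -0.26 ± 0.06 (edgeR adjusted p = 0.195). Rn7s2 stood at 59 and 60 CPM at 24 months and at 0 to 5.74 CPM in the libraries of 6, 12 and 18 months. Sema4d, which had declined to 6 months, lay between 69.8 and 80.2 CPM in the 5 old libraries and between 68.3 and 77.9 CPM in the 6 middle-aged ones. Plxnb3 had 25.1 to 38.3 CPM in the old libraries and 29.9 to 41.3 CPM in the middle-aged ones (-0.29 ± 0.10, not called).

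Levels of different genes were compared at 3 weeks per kilobase of merged exons. Sema6b (95.1 CPM per kb) and Efnb3 (86.8) stood highest, followed by Sema7a (28), Sema4d (25.0) and Efna3 (21.1). The highest receptor was Plxna1, with 19.1 CPM per kb. The lowest were Ntn5 (0.085), Robo3 (0.271), Efna4 (0.443) and Epha3 (0.480). Robo3, which in mammals lets commissural axons cross the midline, varied from 0.669 to 15.3 CPM among the 28 libraries, and the ratio of its highest to its lowest age mean after P5 was 5.7. Its 3-week libraries, at 1.49 to 2.14 CPM, lay below all libraries at 5 weeks (3.54 to 4.59 CPM), and below those at 12, 18 and 24 months. Libraries within the later ages spread widely, from 5.82 to 15.3 CPM at 24 months, and the test over ages did not call it (edgeR adjusted p = 0.118). At 5 weeks over 3 weeks it was called only with the compared ages alone in the fit (log2 fold change 1.11, edgeR adjusted p = 0.00721).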

How the data were processed

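Paired-end RNA-seq libraries of mouse hypothalamus were aligned with HISAT2 2.1.0 to mm10 (GRCm38) and counted with HTSeq 0.9.1, per the submitters' processing notes; the sources used here do not give the annotation, strand setting or trimming. The deposited values are whole-number counts per gene symbol, 1 file a library, taken as the authors left them. The 5 HTSeq summary lines, 26.1 to 32.5% of each total, were removed. Counts are uncertain for members that an annotated gene overlaps on the opposite strand (Epha1, Epha6, Epha10, Ephb4, Ntn1, Ntn4, Ntn5, Plxna4, Sema6d, Unc5a) or on the same strand (Ntn3, Ntng2), and microRNA genes lie within Epha4, Ephb1, Nrp1, Plxnb2, Robo2, Sema4a, Slit2 and Slit3.

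The analysis used R 4.3.3 and edgeR 4.0.16: filterByExpr by age, TMM factors, 1 mean per age over 28 libraries, robust quasi-likelihood fits and two-sided tests adjusted over 16916 genes. The standard error is the log2 fold change over the square root of F. CPM uses TMM-scaled library sizes. Fits were tested on simulated data. Alternatives were DESeq2 1.42.0, RLE factors, no filter, the compared ages alone, a replicate block, a library-set term, the removal of each library and, for old age, a slope per month and all 29 libraries. Positions and exon lengths came from GENCODE M21, and promoters from RefSeq.

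The members, gene lists and tests were chosen with earlier results of these data known. Genes were named by family and size of change with a mean of at least 2 CPM, by smallest p, or from a panel, and some others to account for every member. Depth sets a floor, at 3 counts, of 0.0754 to 0.122 CPM, which covers counting error only.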

Additional observations from a re-analysis of the deposited data

Results flagged for a closer look

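In 8 of 90 groups of 4 libraries a single library stood apart from the others by Dixon's test, where chance gives about 1 in 20, and all 8 came from 2 libraries. Epha4 had 176 CPM in 4-week replicate 1, against 96.1 to 99.9 CPM in the other 4-week libraries, and 156 CPM in 5-week replicate 2, against 95 to 99.4 CPM in the others. Epha7 had 70.5 CPM in 4-week replicate 1 (others 40.9 to 42.6) and 74.1 CPM in 5-week replicate 2 (others 42.1 to 46.6). In 4-week replicate 1, Ntn1 was low at 26.8 CPM (others 31.1 to 31.9), and so was Robo4 at 5.43 CPM (others 7.37 to 7.44). In 5-week replicate 2, Sema7a was high at 166 CPM (others 106 to 116), and so was Robo2 at 43.8 CPM (others 38.3 to 39.1). The same 2 libraries had the highest sums of cortical markers of their ages, 345 and 359 CPM, and of thalamic markers, 1600 and 1560 CPM. Their sums of hypothalamic transcription factors were the lowest, 86.5 CPM (others 135 to 147) and 120 CPM (others 146 to 172). In 5-week replicate 2, choroid plexus markers were at 1550 CPM in sum (others 28.4 to 38.7). The part of these markers was not tested.

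The partial 24-month library, replicate 5, held 2377580 counts on chromosomes 1 and 10, with 4 guidance genes among them, Epha4, Nrp2, Plxna2 and Sema4c. Per 1000000 counts on the genes with counts there, Epha4 had 1730, against 1140 and 1620 in 24-month replicates 2 and 4. Sema4c had 257, against 261 and 287 in replicates 2 and 4.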

How the results depend on the processing

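Of 2816 fold changes of named genes under another setting, 2734 kept their side of the threshold, 55 lost the call and 27 gained one. Those kept include values not called in the main fit, which had no call to lose. Among them are 747 of old over middle age, where the main fit called no member. Of the fold changes called in either fit, 0 changed sign. The direction of values called in neither fit was not checked. With single libraries left out, 43 to 48 members were called at 3 weeks over P5, 2 to 3 at 5 weeks over 3 weeks, 12 to 18 at 2 months over 5 weeks, 5 to 9 at 6 months over 5 weeks, and 0 for old over middle age. With the compared ages alone, 14 members were called at 6 months over 5 weeks, 12 lower and 2 higher. DESeq2 called 1 member in old age, and a term for the library set left 0 at 5 weeks over 3 weeks. The cause was not tested. The replicate numbers did not pair the libraries: same-numbered libraries correlated at 0.03, 0.20 and 0.09 for 3 weeks and P5, and at -0.18, -0.27 and -0.19 for 5 and 3 weeks. With the replicate number as a block, fitted on the compared ages alone, 54 members were called at 3 weeks over P5 and 0 at 5 weeks over 3 weeks.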

Other observations

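Sema3b, a secreted semaphorin, had 29.3 CPM in 12-month replicate 28 and 16.9 CPM in 18-month replicate 14, against 2.74 to 11.1 CPM in all other libraries. These libraries also held 4910 and 3290 CPM of choroid plexus markers in sum. The part of those markers was not tested.

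Ntng1, a lipid-anchored netrin-G, was not called in the test over 3 weeks to 24 months (edgeR adjusted p = 0.91). After P5 it ranged from 77.1 CPM in 12-month replicate 28 to 224 CPM in 4-week replicate 1. The same libraries held the lowest and the highest sum of thalamic markers after P5, 696 and 1600 CPM. The part of the thalamic markers was not tested.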
